A study of Mus musculus with 13 samples.

Results

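The organic ion transporters carry drugs, bile acids, bilirubin, hormones and carnitine across cell membranes, and 3 gene families of them were followed here in mouse liver chromatin: Slc22a, Slco and Abcc. Every protein-coding gene with a symbol of one of these families was a member, which gave 49 of 21896 protein-coding genes, with 25 in Slc22a, 14 in Slco and 10 in Abcc. A peak was given to a member when its centre lay nearest to that gene's body, within 100 kb. By this rule 790 of the 217044 peaks in the 7 deposited peak lists were member peaks, and no such peak lay equally near to a gene outside the families. Merging peaks that overlapped across lists left 267 sites. The members with at least 1 site numbered 43, and the 6 without one were Abcc8, Slc22a17, Slc22a19, Slc22a2, Slc22a28 and Slco1a5.

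Livers of male mice gave 12 ChIP-seq libraries (chromatin immunoprecipitation) and 1 input library. Controls were labelled GFP. The knockouts were labelled CRE, or dKO in the titles, and the corepressor NCOR1 is among what they lack. Mice of both genotypes received either vehicle (saline, per the series) or dexamethasone, a synthetic glucocorticoid, at 1 mg/kg into the peritoneum at ZT8 (zeitgeber time, hours after lights on), and tissue was collected at ZT10, 2 h after the injection. How Cre was delivered, in which liver cells it acted and the age of the animals are not given in the sources used here. The glucocorticoid receptor (GR) was precipitated in all 4 combinations of genotype and treatment, with 2 libraries in each. NCOR1 was precipitated under vehicle in both genotypes, with 1 library each, and under dexamethasone in controls only, with 2 libraries. GR values of a site are listed below in a fixed order: control with vehicle, control with dexamethasone, dKO with vehicle, dKO with dexamethasone. Each group has 1 list called on its pooled libraries. No value below therefore has a spread between animals, and the comparisons asked where the drug and the knockout moved GR and NCOR1 in these lists.

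Glucocorticoids bind GR and send this transcription factor to enhancers and promoters, where it gathers cofactors. NCOR1 is a scaffold that brings histone deacetylase to nuclear receptors and is known for repression. In hepatocytes, Slco and Slc22a carriers of the blood-facing membrane take organic anions and cations up, and Abcc pumps use ATP to export them, mostly as conjugates, into bile or back to blood. Several of these genes are known targets of the nuclear receptors PXR, CAR and FXR.

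All levels below are the authors' normalized tag counts, the number of sequenced tags in a 200 bp peak per 10 M tags of the list (M for mega). The 4 GR lists held 27.5 to 31.9 M tags and 23362 to 40853 peaks, and the NCOR1 lists held 17.8 M (control vehicle), 36.9 M (control dexamethasone) and 17.5 M tags (dKO vehicle). The share of tags lying in peaks was lower in dKO than in control GR lists, at 3.40% against 5.0% under vehicle and 4.1% against 7.23% under dexamethasone, and its part in the genotype differences below was not tested. As a check of the genotype labels, the NCOR1 antibody gave 17282 peaks in dKO against 39458 in control under vehicle. Peak lists hold no RNA level, so the tissue label was checked only by where GR was bound. Hnf4a, a defining hepatocyte factor, had GR peaks in all 4 lists (26.2, 45.6, 14.4 and 23.3 in the fixed order). Of 17 marker genes of other liver cells, 10, 12, 7 and 9 also had a GR peak, the strongest at the endothelial gene Stab2 (80.6, 149.4, 17 and 40.4). The cholangiocyte factor Sox9 (20.9, 33.0, 11.1 and 15.8) and the macrophage gene Marco (16.6, 10.8, 16.4 and 6.11) had GR in all 4 lists too, whereas Krt7, Krt19 and Cd68 had no peak in any list. GR peaks thus lay at genes of hepatocytes and of other liver cells, and their positions do not separate the cell types. In bulk liver, fewer cells of a type and less binding per cell cannot be told apart.

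Promoters are shown first, because they are the stretches of the members whose letters were at hand. The RefSeq promoter table on GRCm38.p6 matched 40 of the 49 members with 48 windows of 250 bases before a start. Members without an entry included Abcc1, Abcc3, Abcc6, Abcc8, Slc22a21, Slc22a7, Slco3a1 and Slco5a1. A peak overlapped 15 windows of 14 genes. The 5 windows below lie under NCOR1 peaks, GR peaks or both, and belong to genes described later. Abcc2 lies at chr19:43782058-43782307 on the plus strand. The other 4 are on the minus strand: Slc22a26 at chr19:7802668-7802917, Slc22a4 at chr11:54028105-54028354, and Slco2b1 with an inner start at chr7:99695810-99696059 and an outer start at chr7:99711341-99711590. Each is written 5′ to 3′ in the gene's own direction, with capitals marking motif matches on either strand (AGAACA or TGTTCT, the GR half-site; AGGTCA or TGACCT, the nuclear receptor half-site; CCAAT or ATTGG, the CCAAT box; CACGTG, the E-box).

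Abcc2: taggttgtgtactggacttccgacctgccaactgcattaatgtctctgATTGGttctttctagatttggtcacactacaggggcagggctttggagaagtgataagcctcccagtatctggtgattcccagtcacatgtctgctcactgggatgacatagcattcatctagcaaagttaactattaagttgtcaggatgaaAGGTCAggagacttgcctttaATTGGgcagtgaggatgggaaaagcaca
Slc22a26: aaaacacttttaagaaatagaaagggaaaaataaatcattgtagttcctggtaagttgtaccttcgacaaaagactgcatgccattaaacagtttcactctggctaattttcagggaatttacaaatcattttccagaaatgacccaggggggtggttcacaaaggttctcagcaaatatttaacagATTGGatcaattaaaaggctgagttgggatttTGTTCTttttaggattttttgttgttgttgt
Slc22a4: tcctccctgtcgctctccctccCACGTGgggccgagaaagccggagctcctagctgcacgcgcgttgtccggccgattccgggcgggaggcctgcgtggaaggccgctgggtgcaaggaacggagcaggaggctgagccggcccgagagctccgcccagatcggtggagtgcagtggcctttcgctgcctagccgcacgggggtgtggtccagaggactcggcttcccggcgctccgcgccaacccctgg
Slco2b1 inner start: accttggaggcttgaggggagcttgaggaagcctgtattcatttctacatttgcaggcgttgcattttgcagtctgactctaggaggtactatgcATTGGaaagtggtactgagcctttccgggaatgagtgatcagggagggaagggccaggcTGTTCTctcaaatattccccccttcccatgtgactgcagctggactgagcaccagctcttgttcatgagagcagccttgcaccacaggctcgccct
Slco2b1 outer start: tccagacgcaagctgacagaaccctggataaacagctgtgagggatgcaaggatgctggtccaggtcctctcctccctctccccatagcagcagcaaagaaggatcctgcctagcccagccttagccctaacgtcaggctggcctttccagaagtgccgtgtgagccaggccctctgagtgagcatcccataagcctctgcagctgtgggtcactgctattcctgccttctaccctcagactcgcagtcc

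The Abcc2 window carried NCOR1 peaks of 25.9 under vehicle and 23.7 under dexamethasone in control liver, with no GR peak in any list. It holds 1 nuclear receptor half-site and 2 CCAAT boxes. The Slc22a26 window lay under GR peaks of 8.74 and 10.5 and NCOR1 peaks of 19.4 and 28.7 in control liver, under vehicle and dexamethasone, and under no peak in dKO. The Slc22a4 window had a GR peak of 10.0 in control vehicle alone, with NCOR1 peaks of 20.3 and 11. At the inner start of Slco2b1 the window overlapped GR peaks of 20.7 (control vehicle), 19.6 (control dexamethasone) and 17.6 (dKO dexamethasone). Other peaks of the same site lay beside the window. They were a GR peak of 14.4 in dKO vehicle and NCOR1 peaks of 30.1 (control vehicle) and 11.6 (control dexamethasone). At the outer start of Slco2b1, GR peaks of 19.8, 16.7, 23.1 and 13.3 overlapped the window in the 4 lists, with no NCOR1 peak and none of the motifs searched. A full glucocorticoid response element (AGAACA and TGTTCT with 3 bases between, which contains the half-site in both directions) was found in 0 of the 15 windows with a peak and in 0.00913% of all 32851 promoters in the table. The GR half-site was in 3 of the 15 (16.1% of all promoters), the nuclear receptor half-site in 4 (14%), the CCAAT box in 3 (33.8%) and the E-box in 2 (6.02%). The other motifs searched were the TATA box (TATAAA) in 1 window (12.4%), and the direct repeat (AGGTCA repeated after 1 base, which contains the nuclear receptor half-site), the HNF1 site (GTTAAT and ATTAAC with 1 base between) and the CEBP site TTGCGCAA in 0 (0.0335%, 0.00913% and 0.164%). These are matches of letters in 250 bases, and most member peaks lay elsewhere: 25 of the 233 sites whose gene has a listed start were within 1 kb of it.

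Of the 267 sites, 177 had a GR peak in at least 1 list and 212 a peak with the NCOR1 antibody. Both occurred at 122 sites, GR alone at 55 and NCOR1 alone at 90. GR was called in all 4 lists at 54 sites, in 3 lists at 27, in 2 at 42 and in a single list at 54. Among genes, 26 of the 49 members had a GR peak in every GR list, including the hepatic pumps Abcc2, Abcc3, Abcc4 and Abcc6 and the uptake carriers Slco1a4, Slco1b2, Slco2b1 and Slc22a5. No such share was computed over all genes. Slc22a18, Slc22a20 and Slco6c1 had peaks with the NCOR1 antibody and none with GR, while Slc22a16 and Slco6d1 had GR peaks and none with NCOR1. Member peaks lay inside the gene body for 54.4% to 65.1% of peaks, depending on the list, against 55.0% to 56.8% of all peaks.

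In control vehicle liver the strongest GR peaks of the families were at Slco2b1 (71.9), Slco1b2 (56.8), Abcc2 (53.9), Slc22a5 (44.0), Slco1a4 (43.7), Slc22a15 (40.4), Slco2a1 (34.8) and Abcc9 (32.8). The median member GR peak in that list was 12.5, against 13.3 for all peaks. In control dexamethasone liver Abcc2 led with 92.6, ahead of Slco2b1 (85.1) and Slco1b2 (71.9), and the member median was 15.5 against 12.0. Slco2b1 led both dKO lists, at 46.2 under vehicle and 62.1 under dexamethasone, where the member medians were 12.5 and 12.2 against 12.4 and 10.7 for all peaks.

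**Figure D1:**
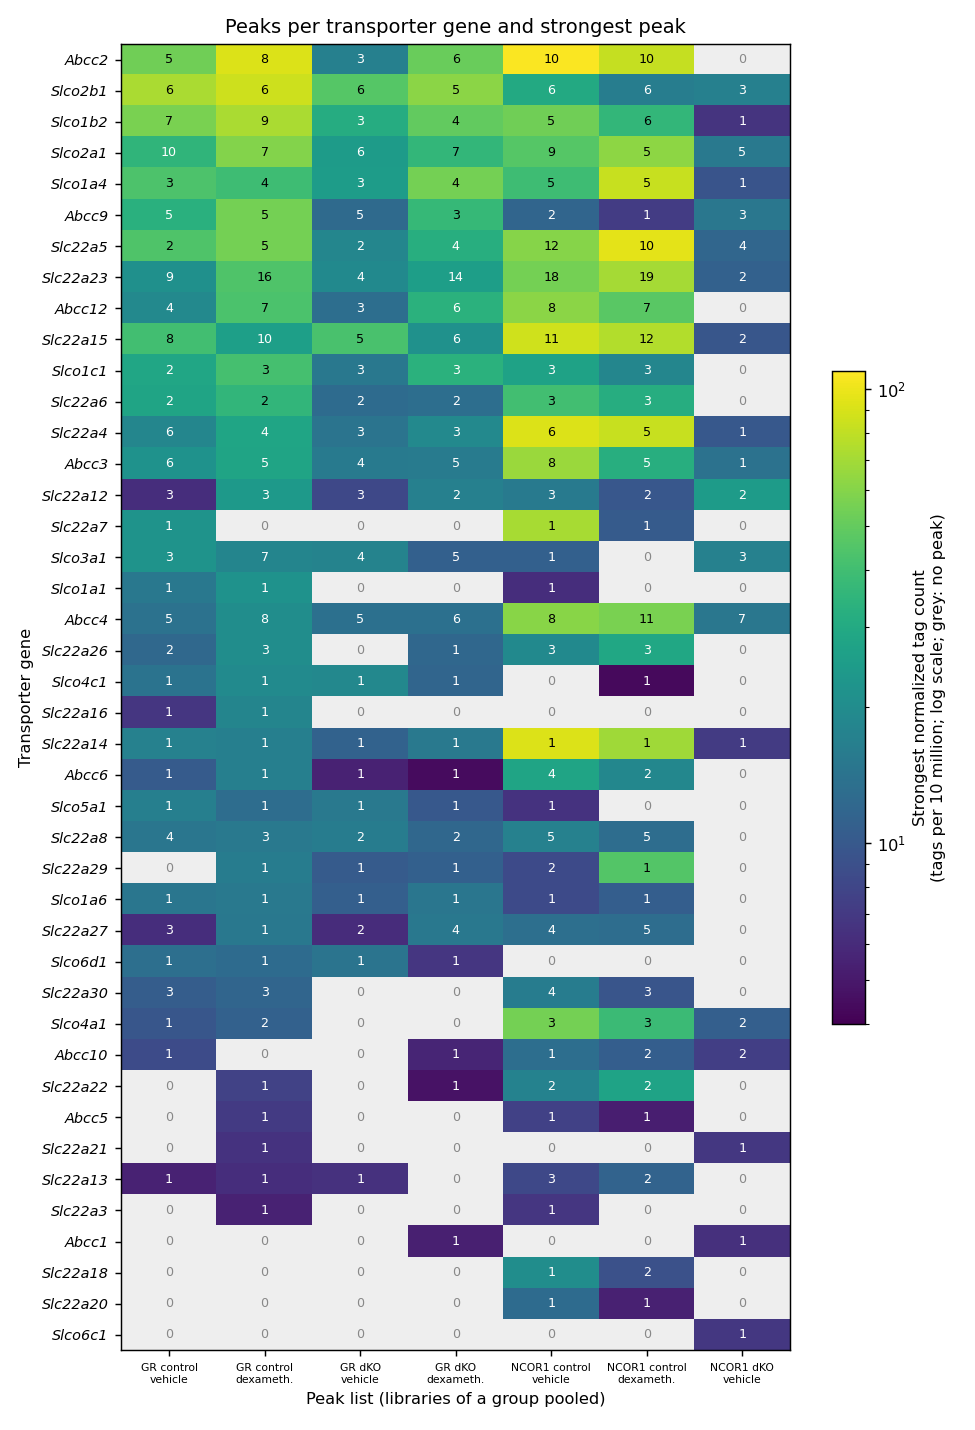
Peaks of 42 transporter genes with a peak (rows) in the 7 pooled lists (columns): the number in a cell is the count of peaks, the colour the strongest normalized tag count (tags per 10 M, log scale), and grey marks no peak. Abcc2, Slco2b1 and Slco1b2 hold the strongest GR peaks, and in the NCOR1 dKO column most cells are grey or dark, with a highest value of 24.6.

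GR tag counts were higher under dexamethasone than under vehicle at many transporter sites of control liver, with the highest ratios at single sites of Abcc9, Slc22a12 and Slco2a1. The control dexamethasone list held 137 member GR peaks at 37 genes, against 114 at 34 genes under vehicle. These were 0.335% of its 40853 peaks and 0.38% of the 30011 vehicle peaks, so the member share was not higher with the drug. The share of all genes with a peak was not computed. Of the 137, 49 (35.8%, exact 95% interval 27.8 to 44.4) had no overlapping vehicle peak, against 39.8% of all peaks in that list, so the share was near the background. Of the 114 vehicle peaks, 26 (22.8%, 15.5 to 31.6) had no dexamethasone peak, against 18.1% of all. Among 88 sites with a peak in both lists, 28 (31.8%) were at least 1.5-fold higher and 4 (4.55%) at least 1.5-fold lower with the drug, against 25.1% and 15.9% of all 24576 matched sites. The median log2 ratio was 0.32 (quartiles -0.06 and 0.71), against 0.07 over all matched sites. These intervals, and those of single-site ratios below, cover counting error only, and tags of amplified libraries are not all independent molecules.

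Abcc2 encodes the canalicular pump that exports conjugated bilirubin and glutathione conjugates into bile. Its GR peaks numbered 5 under vehicle and 8 under dexamethasone in control liver, and 3 and 6 in dKO. The strongest site lay inside the gene at chr19:43831336-43831536, 49.1 kb from the start, and read 45.7, 92.6, 17 and 51.7. Both dexamethasone lists stood above both vehicle lists there, and within each treatment dKO was lower. The drug ratio was 2.03-fold in control (95% counting interval 1.63 to 2.51) and 3.04-fold in dKO (2.22 to 4.22).

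A site 10.4 kb into Abcc2 at chr19:43792607-43792807 read 53.9, 71.1, 16.1 and 37.9. Its drug ratio was 1.32-fold in control (1.07 to 1.64) and 2.35-fold in dKO (1.69 to 3.35), and the dKO vehicle value stood apart as the lowest. A site 31.8 kb into the gene at chr19:43813999-43814199 was called only with the drug, at 57.1 in control and 33.2 in dKO, and it was the strongest member GR peak found under dexamethasone and not under vehicle in either genotype. No NCOR1 peak overlapped it in any list. Another drug-only peak of Abcc2, 26.0 kb into the gene, read 28.1 in control and was not called in dKO.

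The other hepatic pumps had weaker GR sites. Abcc3, which exports conjugates across the blood-facing membrane, had its strongest site inside the gene at chr11:94347307-94347507, with 15.3, 27.8, 15.4 and 15.7. The control dexamethasone value was the high one, and the other 3 were alike. The strongest GR peak of Abcc4, an exporter of conjugates and cyclic nucleotides, was at chr14:118649600-118649800 and was called in control dexamethasone only, at 20.3. Another Abcc4 site was nearly as strong and was called in all 4 GR lists, at 14, 20, 13.6 and 13.6. GR at this gene was therefore not limited to control dexamethasone liver. Abcc6, whose product is known for its role in calcification disorders, read 10.4, 16.7, 5.46 and 4.39 at chr7:45992530-45992730, so both dKO lists were lower than both control lists. Over these 4 pump genes, 14 sites matched between the control lists with a median log2 ratio of 0.52, and 5 were at least 1.5-fold higher and 0 lower with the drug, against 25.1% and 15.9% of all matched sites.

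Abcc9, a sulfonylurea receptor subunit of potassium channels and not itself a pump, had the highest drug ratio of any matched member site. Its site 2.09 kb from the start at chr6:142700082-142700282 read 11.6, 54.8, 8.67 and 36.7, a ratio of 4.72-fold in control (3.22 to 7.12) and 4.23-fold in dKO (2.76 to 6.69). A second Abcc9 site, 87.9 kb from the start, read 32.8 and 41.5 in control and 27.1 in dKO with the drug, and was not called in dKO with vehicle. One more, 4.79 kb from the start, went the other way, with 21.1 in control vehicle and 11.7 in control dexamethasone (0.555-fold, 0.352 to 0.854). Near Abcc12, a family member of unsettled substrate, a site at chr8:86494873-86495073 outside the gene was called only with the drug, at 43.1 in control and 33.1 in dKO.

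Slco2b1, a carrier of steroid conjugates and drugs, held the strongest GR site of 3 of the 4 lists. The site lay inside the gene at chr7:99702247-99702447, 4.5 kb from a start, and read 71.9, 85.1, 46.2 and 62.1. The control drug ratio of 1.18-fold had an interval that includes 1 (0.979 to 1.43), and that in dKO was 1.34-fold (1.08 to 1.68). A second intragenic site at chr7:99680506-99680706 read 42.8, 77.6, 27.9 and 39.0, with a drug ratio of 1.81-fold in control (1.44 to 2.27) and 1.40-fold in dKO (1.05 to 1.85). The peaks at the outer start, whose sequence is given above, ran the other way in dKO, from 23.1 to 13.3 (0.576-fold, 0.380 to 0.844). In control the values there were 19.8 and 16.7, with an interval that includes 1 (0.565 to 1.27).

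Slco1b2 takes up bile acids, bilirubin and many drugs, and Slco1a1 and Slco1a4 are broad organic anion carriers of the same cluster on chromosome 6. Members of this cluster, like the Slc22a26 to Slc22a30 group on chromosome 19, are close copies, and how reads matching several places were treated is not given in the sources used here, so their values are uncertain. The strongest Slco1b2 site, 13.9 kb upstream of the start at chr6:141615479-141615679, read 56.8, 71.9, 31.1 and 49.7, with a drug ratio of 1.27-fold in control (1.03 to 1.57) and 1.60-fold in dKO (1.24 to 2.08). Another site 18.6 kb upstream read 20.6 and 25.1 in the control lists and was called in neither dKO list. The strongest Slco1a1 site likewise had 15.1 and 21.8 in control vehicle and dexamethasone and no peak in dKO.

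Slco1a4 was the exception among the uptake carriers. A site inside the gene, 1.65 kb from the start at chr6:141854470-141854670, was not called in control under vehicle and read 27.3 there under dexamethasone, while dKO had 19.6 and 55.3. It was the only one of the 88 member sites matched between the dexamethasone lists that was at least 1.5-fold higher in dKO than in control (2.03-fold, 1.55 to 2.66), and no NCOR1 peak overlapped it. Its neighbour 1.67 kb upstream of the start read 43.7, 39.1, 25 and 29.8, with dKO below control under both treatments. A site 10.0 kb upstream read 18.7, 38.6, 14.1 and 25.5, higher with the drug in both genotypes (2.06-fold and 1.81-fold).

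Slc22a5, the high-affinity carnitine carrier, had its strongest GR site 12.7 kb upstream of the start at chr11:53904271-53904471, with 44.0, 54.8, 18.3 and 32.0. The dKO vehicle value was the lowest, and the drug ratio was 1.25-fold in control (0.981 to 1.59) and 1.75-fold in dKO (1.25 to 2.46). Slc22a7, an organic anion carrier, had a single site, 0.263 kb outside the gene at chr17:46438640-46438840. GR was called there in control vehicle alone, at 22.0, which was the strongest vehicle peak of any member without a dexamethasone peak in control liver.

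**Figure D2:**
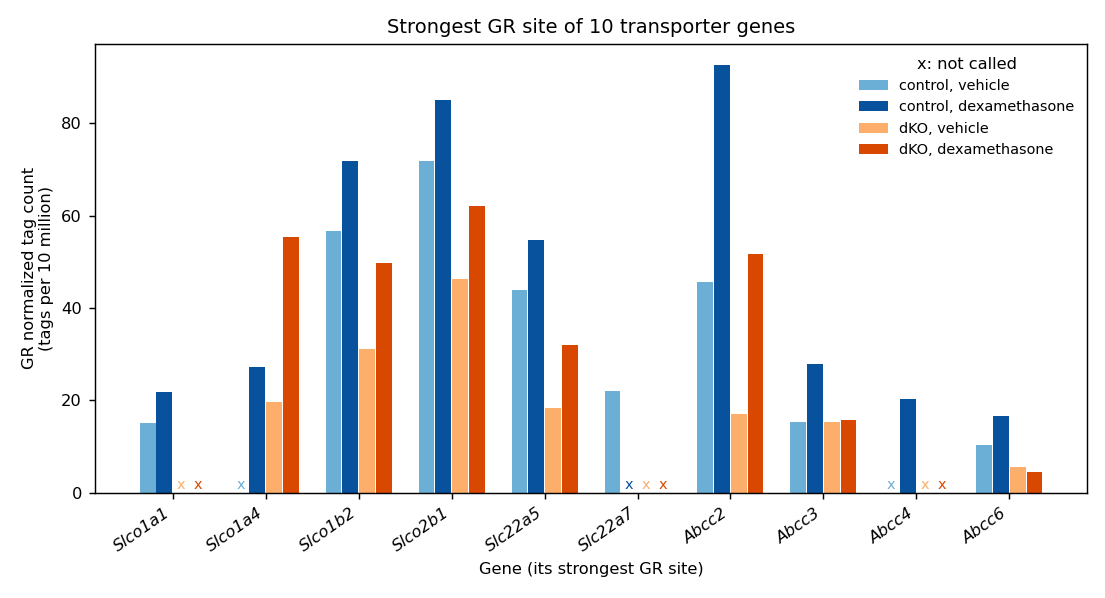
GR normalized tag count (tags per 10 M, bars from 0) at the strongest GR site of each of 10 hepatic transporter genes, in 4 pooled lists coloured by group; x marks a peak that was not called. Abcc2 reaches 92.6 in control dexamethasone, Slco1a4 alone is highest in dKO dexamethasone (55.3), and Slc22a7 has a bar only in control vehicle.

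Outside the carriers best known in hepatocytes, and among sites with a tag count of at least 20 in a list, the highest control drug ratios after Abcc9 were at Slc22a12, a urate exchanger (6.19 to 23.8, 3.84-fold, 2.23 to 6.92), and at Slco2a1, a prostaglandin carrier (14 to 42.0, 3.0-fold, 2.10 to 4.48). Slco1c1, a thyroid hormone carrier, followed with 15.7 and 37.5 (2.39-fold, 1.68 to 3.50), and Slc22a23, an orphan member, with 19.3 and 44.3 (2.30-fold, 1.66 to 3.22). All of these had the higher value with the drug in dKO as well, at 5.62 and 16.9, 14.6 and 27, 15.1 and 33.1, and 17.3 and 25.7. With the same minimum, the lowest ratios were at Slco3a1 (22.0 to 11.2, 0.509-fold, 0.330 to 0.802), the Abcc9 site named above, and Slc22a15 (40.4 to 24.8, 0.614-fold, 0.448 to 0.826). The Slc22a15 site, 66.2 kb from the start at chr3:101858107-101858307, read 42.4 and 21.3 in dKO (0.502-fold, 0.370 to 0.679). It was the only member site with GR in all 4 lists that was at least 1.5-fold lower with the drug in both genotypes, against 8 such sites that were higher in both. This count was not made over all sites.

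In dKO liver, transporter sites with more GR under the drug and sites with less were both found. The dKO dexamethasone list held 105 member peaks (0.37% of its 28378) and the vehicle list 79 (0.338% of its 23362). No overlapping vehicle peak was found for 41 of the 105 (39.0%, 29.7 to 49.1; 35.4% of all peaks), and no dexamethasone peak for 15 of the 79 (19.0%, 11 to 29.4; 21.5% of all). Among 64 matched sites, 17 (26.6%) were at least 1.5-fold higher and 10 (15.6%) at least 1.5-fold lower with the drug, against 19.5% and 31.4% of all matched sites. The median log2 ratio was 0.09 (quartiles -0.29 and 0.61) and that of all sites -0.11. Centred on that median, 19 member sites were higher and 5 lower, against 24.1% and 25.2% of all. At sites with a tag count of 20 or more in a list the member median was 0.68. At the 54 member sites with GR in all 4 lists, the drug ratio was above 1 in both genotypes at 28, below 1 in both at 14 and on opposite sides at 11, with equal dKO values at the other site, and at 0 of them was it past 1.5-fold in opposite directions. These counts were not made over all sites. Of the 49 member peaks found with the drug and not with vehicle in control, 22 (44.9%) also had a peak in dKO dexamethasone, against 33.7% of all such peaks, and 66 of the 88 in both control lists did (75%, against 78.3%).

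**Figure D3:**
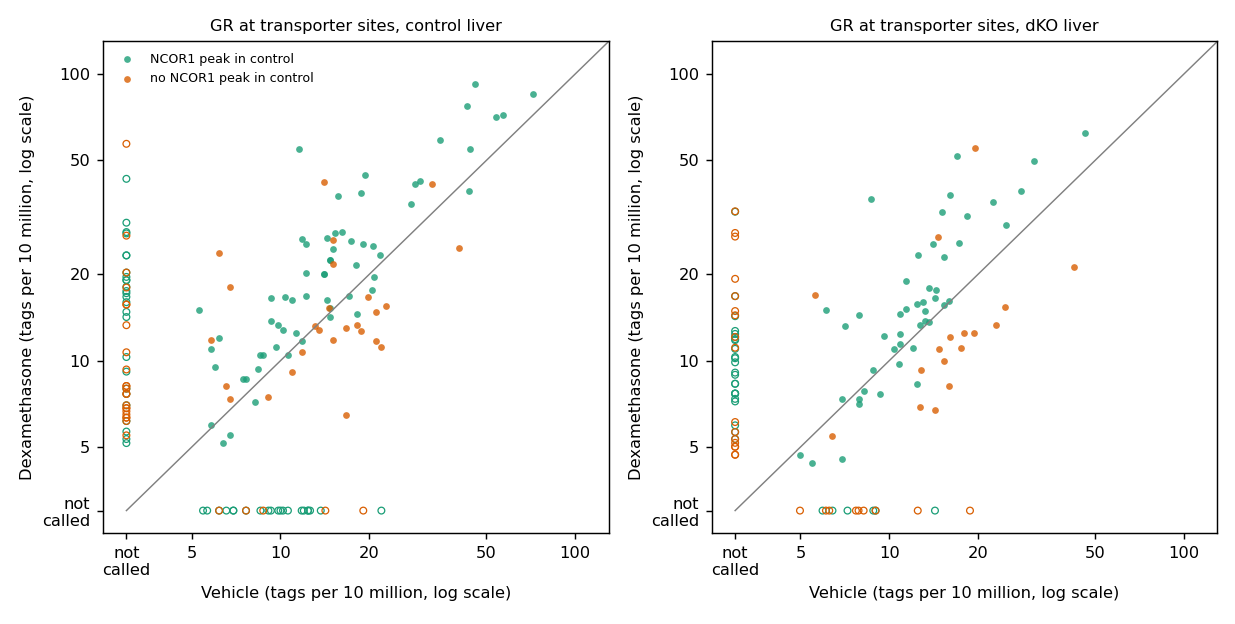
GR normalized tag count under dexamethasone (vertical) against vehicle (horizontal) at transporter sites, on log axes in tags per 10 M, in control (left) and dKO liver (right); open points on the edges were called in 1 list only, the line marks equal values, and colour gives whether a control NCOR1 peak overlapped. Green sites lie mostly on or above the line and most orange matched sites on or below it in both panels, with medians of 0.43 and -0.19 in control and 0.29 and -0.61 in dKO (log2).

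GR was lower in dKO than in control at most matched transporter sites, with Abcc2 among the lowest ratios. Under vehicle, 46 of the 114 control member peaks (40.4%, 31.3 to 49.9) had no dKO peak, against 35.1% of all, and 11 of the 79 dKO peaks (13.9%, 7.16 to 23.5) had no control peak, against 16.6% of all. Of 68 matched sites, 17 (25%) were at least 1.5-fold lower and 0 higher in dKO, against 22.3% and 1.66% of all matched sites, and the median log2 ratio was -0.21 (quartiles -0.58 and 0.04), against -0.19 over all sites. The lowest vehicle ratios were 2 sites of Abcc2, at 3.35-fold (2.42 to 4.72) and 2.69-fold lower (1.94 to 3.79), then the upstream site of Slc22a5 (2.40-fold lower, 1.74 to 3.36). Slco1c1 (28.6 and 12.5) and Slc22a6, the renal organic anion exchanger (27.7 and 12.7), came next. At the outer start of Slco2b1 and at Slc22a15 and Slco2a1 sites without NCOR1, the ratios of 1.17, 1.05 and 1.08 had intervals that include 1.

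Under dexamethasone, 49 of the 137 control member peaks (35.8%, 27.8 to 44.4) had no dKO peak, against 39.5% of all, and 17 of the 105 dKO peaks (16.2%, 9.72 to 24.7) had no control peak, against 12.9% of all. Of 88 matched sites, 41 (46.6%) were at least 1.5-fold lower and 1 (1.14%) higher in dKO, against 36.5% and 1.46% of all matched sites. The median log2 ratio was -0.55, against -0.42 over all sites. Centred on that median of all sites, 5 member sites were lower and 5 higher, in place of 41 and 1. Under vehicle the centred counts were 11 lower and 1 higher. Among sites with a tag count of at least 20 in a list, the lowest ratios were 0.377 at Slc22a6 (35.3 and 13.3; 0.254 to 0.538), 0.414 near Abcc12 (26.8 and 11.1) and 0.414 upstream of Slco2a1 (26.6 and 11; 0.269 to 0.620). GR peaks in both control lists and in neither dKO list were found at 4 genes, Slc22a16, Slc22a30, Slco1a1 and Slco4a1. Their control values were low, with the highest at 21.8. How common this pattern is over all genes was not computed.

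**Figure D4:**
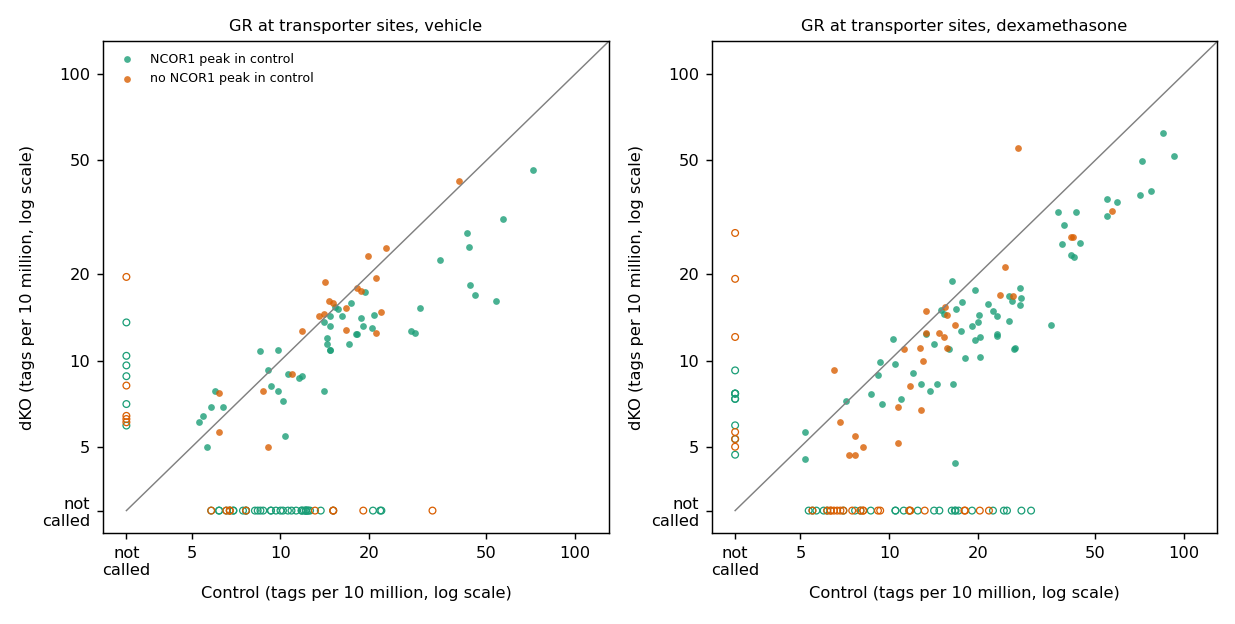
GR normalized tag count in dKO (vertical) against control (horizontal) at transporter sites, on log axes in tags per 10 M, under vehicle (left) and dexamethasone (right); open points on the edges were called in 1 list only, the line marks equal values, and colour gives whether a control NCOR1 peak overlapped. Most points lie below the line, and the point above it on the right at 27.3 and 55.3 is the Slco1a4 site.

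In control vehicle liver the NCOR1 list held 162 member peaks at 37 genes, which were 0.411% of its 39458 peaks. Their median tag count was 18.8, against 15.5 for all NCOR1 peaks. The share of all genes with an NCOR1 peak was not computed. GR and NCOR1 values are not compared with each other, since the libraries were prepared differently. The strongest NCOR1 peaks were at Abcc2 (108.3), Slc22a4 (92.8), Slc22a14 (92.0), Slc22a15 (86.4), Slc22a7 (70.9), Abcc3 (67.2), Abcc12 (62.2) and Abcc4 (61). Slc22a4 encodes the ergothioneine carrier and lies near Slc22a5, with Slc22a21 between them, and Slc22a14 is best known from sperm.

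With dexamethasone the NCOR1 list held 150 member peaks (0.398% of its 37700). Of these, 30 (20.0%, 13.9 to 27.3) had no vehicle peak, against 29.6% of all, and 42 of the 162 vehicle peaks (25.9%, 19.4 to 33.4) had no dexamethasone peak, against 32.8% of all. Of 120 matched sites, 37 (30.8%) were at least 1.5-fold lower and 9 (7.5%) higher with the drug, against 32.0% and 6.24% of all matched sites, and the medians were -0.34 and -0.31. Centred on all sites, 20 were lower and 22 higher. The dexamethasone list has 2 libraries and the vehicle list 1, so preparation and treatment cannot be told apart.

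Some single sites differed by more than that shared shift. At the Slc22a7 site NCOR1 read 70.9 under vehicle and 10.3 under dexamethasone, 6.88-fold lower (4.76 to 10.2), and this is the site where the GR peak of 22.0 was called under vehicle only. At Abcc2, NCOR1 read 106.1 and 57.6 at the site 10.4 kb into the gene (1.84-fold lower, 1.51 to 2.25). At the site 15 kb in, NCOR1 read 108.3 and 81.8 (0.755-fold). The interval there, 0.63 to 0.912, includes the 0.804-fold median of all matched sites. GR at both Abcc2 sites was higher with the drug (53.9 and 71.1, 29.7 and 42.5). NCOR1 was higher with the drug 19.7 kb upstream of Slco1a4 (27.6 and 83.7, 3.03-fold, 2.24 to 4.19) and 19.5 kb upstream of Slc22a5 (51.2 and 95.4, 1.86-fold, 1.48 to 2.37). At these 2 sites GR was called under dexamethasone and not under vehicle, at 23.3 and 20.3 in control and at 12.4 and 10.3 in dKO. Slc22a29, a member of the chromosome 19 group, had the highest NCOR1 ratio (8.44 and 45.2, 5.36-fold, 3.16 to 9.79), and GR there read 16.0 in control dexamethasone without a control vehicle peak, and 10.4 and 11 in dKO under vehicle and dexamethasone.

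In dKO vehicle liver the NCOR1 antibody gave 43 member peaks (0.249% of 17282), with a median of 9.45 and a highest value of 24.6 at Slc22a12. Of the 162 control vehicle peaks, 143 (88.3%, 82.3 to 92.8) had no dKO peak, against 79.5% of all control NCOR1 peaks. Of the 37 member genes with a control vehicle NCOR1 peak, 21 had none in dKO, among them Abcc2, Slc22a7, Slc22a6, Abcc12 and Abcc6. The share of all genes with this pattern was not computed. Of the 43 dKO peaks, 24 (55.8%, 39.9 to 70.9) had no control vehicle peak, against 53.1% of all. At 19 matched sites the median log2 ratio was -0.53 (all sites -0.39), with 9 (47.4%) lower and 4 (21.1%) higher past 1.5-fold, against 42.8% and 16.5% of all matched sites. Centred on all sites, 8 were lower and 7 higher. The lowest ratios were at Slc22a14 (92.0 and 7.16, 12.8-fold lower), Slc22a4 (92.8 and 10.0, 9.28-fold lower) and the upstream site of Slco1b2 (46.1 and 6.58, 7.01-fold lower). The highest ratio was at the strongest GR site of Slco2b1, with 8.72 in control and 16.9 in dKO (1.94-fold, 1.06 to 4.07). Of 17 marker genes of other liver cells, 10 had a peak with the antibody in each genotype, with 47 peaks in control and 39 in dKO, and 9 of 14 matched sites were at least 1.5-fold higher and 3 lower in dKO. Their part in the member values was not tested.

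**Figure D5:**
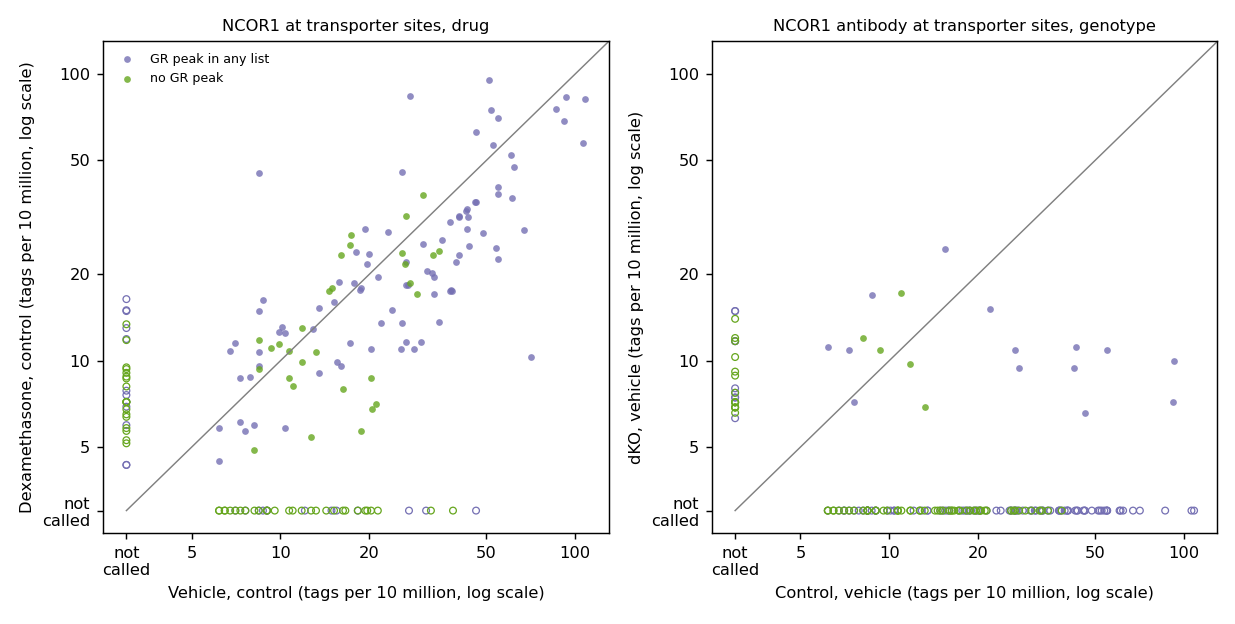
NCOR1 antibody normalized tag count at transporter sites on log axes in tags per 10 M: control dexamethasone against control vehicle (left) and dKO vehicle against control vehicle (right); open points on the edges were called in 1 list only, the line marks equal values, and colour gives whether GR was called at the site in any list. Most control vehicle sites of the right panel lie on the lower edge, as 143 of 162 had no dKO peak.

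NCOR1 peaks overlapped a larger share of GR peaks at the transporters than over all peaks. Under vehicle, 78 of 114 member GR peaks (68.4%, 59.1 to 76.8) overlapped an NCOR1 peak of control liver, against 54.3% of all GR peaks. Under dexamethasone the count was 83 of 137 (60.6%, 51.9 to 68.8), against 48.9% of all. Read from the other side, 48.1% of member NCOR1 peaks under vehicle and 55.3% under dexamethasone had a GR peak, against 41.3% and 53.0% of all NCOR1 peaks. Member GR peaks with NCOR1 had a median tag count of 12.2 and those without 14.1 under vehicle, and 18.1 and 11.4 under dexamethasone.

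Matched sites were then split by whether a control NCOR1 peak of either treatment overlapped, a division made after the data were seen. In control liver the drug median was 0.43 at 62 member sites with NCOR1, with 23 at least 1.5-fold higher and 0 lower, and -0.19 at 26 without, with 5 higher and 4 lower. Over all matched sites the medians were 0.36 and -0.43, so the split is not particular to transporters. With NCOR1 peaks of at least 8-fold over input only, the members without NCOR1 came to 0.07. In dKO the drug medians were 0.29 at 47 sites with and -0.61 at 17 without (0.35 and -0.67 over all sites). The vehicle ratio of dKO to control was -0.42 at 47 sites with and -0.02 at 21 without (-0.46 and -0.02 over all), and the latter became 0.18 when centred on all sites. Under dexamethasone it was -0.60 at 60 sites with and -0.43 at 28 without (-0.57 and -0.29 over all), or -0.17 and -0.01 when centred. Of the 14 sites called in 4 lists with a drug ratio below 1 in both genotypes, 12 had no control NCOR1 peak, as had 2 of the 28 above 1 in both. The Slc22a15 site and 3 sites of Slco3a1, at 22.0 and 11.2, 18.7 and 12.7, and 16.7 and 6.49 in control vehicle and dexamethasone, were of the first kind. The counts of sites called in 4 lists cover member sites only and have no background over all sites.

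Other hepatic transporters outside the 3 families, a list of 19 genes for bile acid, lipid, nucleoside and monocarboxylate carriers, were examined in the same way. In control liver they held 76 GR peaks with the drug and 67 with vehicle, and 52 matched sites had a median of 0.53, with 19 at least 1.5-fold higher and 2 lower, against a median of 0.07 and shares of 25.1% and 15.9% over all matched sites. In dKO the median over 36 matched sites was 0.33, with 12 higher and 1 lower, against -0.11, 19.5% and 31.4% over all. Slc16a10, an aromatic amino acid carrier, had strongest GR peaks of 30.4, 77.1, 21.7 and 58.4, and Slc29a1, a nucleoside carrier, of 43.7, 72.9, 26.8 and 42.8. Values given for single genes here are their strongest GR peaks in each list, which need not be the same site. The drug pump gene Abcb1b read 22.8, 44.5, 19.4 and 28.2. Its neighbour Abcb1a read 21.5, 14.2, 20.2 and 13.6, so its strongest peak was lower with the drug. The bile acid carrier Slc10a1 read 29.9 and 28.8 in control and 13.0 in both dKO lists. In dKO, 0 matched sites of the list were higher and 14 of 45 lower under vehicle (1.66% and 22.3% of all matched sites), and 1 was higher and 22 of 48 lower under dexamethasone (1.46% and 36.5% of all).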

How the data were processed

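The data were 7 lists of peaks, 1 per group, deposited by the authors and called on pooled libraries. The submitters' processing notes list Trim Galore 0.6.4, BWA 0.7.17, HOMER 4.11, bedtools 2.29.2 and mm10. Peaks of 200 bp were called against the input at 4-fold over input and 4-fold over the surrounding 10 kb, at a p of at most 0.0001, per the file headers. The deposited normalized tag count is a signal in tags per 10 M (M for mega), and the deposited fold over input is a ratio computed by the authors, per the file headers. A tag threshold of 15 was set for GR, whereas the NCOR1 thresholds in the file headers were 11, 16 and 12. NCOR1 libraries were size selected and GR libraries were not, per the labels. Depth was 17.5 to 36.9 M tags per list, so absence from a list means only that no peak was called at that depth.

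Peaks were assigned to gene bodies of the RefSeq gene table (GRCm38.p6), since no genome was used here. Peaks of different lists were matched at 1 bp of overlap, and 0 of 379106 overlap calls differed from bedtools 2.31.1. Shares have exact Clopper-Pearson intervals and single-site ratios exact counting intervals at 95%, computed with SciPy 1.17.1 and pandas 2.3.3 and tested on simulated data. With 1 pooled list per group no test across samples was possible. The members and gene lists were chosen with earlier results of these data known. Genes named are 10 hepatic members by strongest site (another of the 11 chosen is not reported here), the 8 strongest members per list, and per comparison the 5 strongest peaks of 1 list only and the 5 highest and lowest ratios with a tag count of 20 or more in a list. Others named were chosen after their values were seen. Alternatives were another overlap, distance, threshold, list length, scaling and minimum tag count.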

Additional observations from a re-analysis of the deposited data

How the results depend on the processing

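No paired analysis was possible because each list pools the libraries of a group and carries no replicate number, and for the same reason no library could be left out. Of 98 alternative values for 20 results, 78 stayed within the 95% interval of the result over its peaks or sites, including all those for a 100 bp overlap, a 20 kb distance and a 400 bp allowance for shifted peaks. Staying within a wide interval does not mean that a result is stable. The NCOR1 dKO to control median of -0.53 over 19 sites had an interval from -2.17 to 0.58. It was -2.05 at sites with a tag count of 20 or more in a list, and -0.09 with peaks of at least 8-fold over input. With peaks of at least 8-fold over input in both lists, 50.5% of control dexamethasone GR member peaks had no control vehicle peak and 45.9% had no dKO dexamethasone peak. In the same setting 33.3% of dKO vehicle peaks had no dKO dexamethasone peak and 25.5% had no control vehicle peak, and the share of GR peaks with NCOR1 was 58.2% under vehicle and 50.5% under dexamethasone. This setting keeps fewer peaks in every list. Shares over all peaks were computed in the main setting only, so member shares in the other settings have no such background. With lists of equal length, which keep the stronger peaks of the longer list, 25.9% of control dexamethasone peaks had no vehicle peak and 26.4% no dKO peak. There, 24.1% of dKO vehicle and 25.7% of dKO dexamethasone peaks had no control peak, and 79.1% of dKO NCOR1 peaks had none. At sites with a tag count of 20 or more in a list, the median log2 drug ratio was 0.53 in control and 0.68 in dKO, and the dKO to control median was -0.65 under vehicle and -0.70 under dexamethasone. The cause was not tested. Centred on the median of all matched sites, the dKO to control medians were -0.02 under vehicle and -0.13 under dexamethasone. The NCOR1 drug median was then -0.03, and the GR drug medians were 0.25 in control and 0.19 in dKO. Without NCOR1 peaks that overlapped a dKO peak, 57.9% of vehicle and 51.8% of dexamethasone GR peaks had NCOR1. The split by NCOR1 and its 2 alternatives were chosen after seeing the data. Depth limits the weak peaks: the NCOR1 vehicle lists hold 17.8 and 17.5 M tags, against 36.9 M under dexamethasone.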

Other observations

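The nuclear receptors and liver factors known to regulate transporter genes, a list of 13 genes, carried stronger GR peaks than most members. Values given for a single gene are its strongest GR peak in each list, which need not be the same site. Nr1i2, which encodes the xenobiotic receptor PXR, had strongest GR peaks of 141.6 and 146.4 in control liver, under vehicle and dexamethasone, and of 85.9 and 100.3 in dKO. Rxra, the shared partner of these receptors, had 184.6, 186.5, 71.3 and 111.4 in the same order. Both differed little between treatments in control liver and were lower in dKO. The strongest peak of Ahr, the aryl hydrocarbon receptor, differed most by treatment, with 25.7, 134.7, 22.3 and 83.5, and Cebpb had 62.8, 132.0, 44.3 and 103.4. Keap1, the cytoplasmic partner of NRF2, ran the other way, with 28.2, 13.5, 25.7 and 13.2. Over 51 matched sites of the list in control liver the median log2 drug ratio was 0.30, with 15 at least 1.5-fold higher and 2 lower, against 0.07, 25.1% and 15.9% over all matched sites. The dKO to control median under vehicle was -0.56 over 40 matched sites, with 0 higher and 19 lower, against -0.19, 1.66% and 22.3% over all. NCOR1 at the list was lower with dexamethasone, with a median of -0.51 over 81 matched sites, and with 37 at least 1.5-fold lower and 2 higher, against -0.31, 32.0% and 6.24% over all matched sites.

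With the NCOR1 antibody, markers of other liver cells differed in both directions between control and dKO vehicle liver. The strongest peak was higher in dKO at the endothelial genes Stab1 (13.8 and 29.2) and Kdr (9.0 and 28.1) and the macrophage gene Clec4f (8.44 and 16.0). It was lower in dKO at Lyve1 (65.0 and 7.73), Sox9 (46.7 and 7.16), Pecam1 (36.9 and 27.8), Stab2 (29.8 and 25.8) and Csf1r (13.8 and 10.0). Lrat (11.7) and Pdgfrb (13.7) had a peak in dKO only, and Epcam (11.8) and Des (5.63) in control only. With 1 library in each of these NCOR1 lists, the values describe those libraries.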
